A study of Homo sapiens with 11 samples.

Results

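The genes described here are 10 genes of ERBB and FGF receptor signalling, taken by symbol from a list. That list was chosen with earlier results of these data known. They are the ERBB ligands HBEGF, EREG and AREG, the ERBB receptors EGFR, ERBB2 and ERBB3, the FGF receptors FGFR1, FGFR2 and FGFR3, and TACC3, the partner of FGFR3 in a recurrent gene fusion. All 10 were found among the 28252 genes of the RT4 RNA-Seq tables and among the 26237 promoters of the BEAS-2B H3K4me3 tables. The study asked which changes in gene expression last after nickel exposure ends. In the data used here, RT4, a human line from a non-invasive bladder cancer, was profiled by RNA-Seq. BEAS-2B, a human bronchial epithelial line, was profiled by ChIP-Seq of H3K4me3, the histone mark of active promoters. The study also used RNA-Seq of BEAS-2B cells and ChIP-qPCR of the repressive mark H3K27me3, which are not described here. Untreated (UT) cells were not exposed, nickel-exposed (Ni-E) cells were kept in 100 μM NiCl2 for 6 weeks, and nickel-washed-out (Ni-W) cells had that exposure and were then grown without nickel. For RT4, the washout lasted 2 weeks and each condition had 2 libraries, which the study's methods call biological replicates. For BEAS-2B, each condition had 1 H3K4me3 library. The BEAS-2B Ni-W cells were a population grown from a single colony for more than 6 months without nickel. However, the labels also name 2 weeks for both lines.

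ERBB receptors are receptor tyrosine kinases that pair up when an EGF-like ligand binds. Ligands such as HBEGF, AREG and EREG are made as membrane proteins and are shed from the cell by metalloproteases, while ERBB2 has no ligand of its own and signals as a partner, most strongly with ERBB3. FGF receptors bind fibroblast growth factors together with heparan sulfate. Both families signal through RAS and the MAP kinases and through PI3K and AKT, and MAP kinase output is held down by induced inhibitors such as the DUSP phosphatases, the Sprouty proteins and ERRFI1. In the bladder, FGFR3 is often activated by mutation or fusion in non-invasive tumors, and RT4 is known to carry a fusion of FGFR3 to TACC3. The gene tables hold no breakpoint, so that reads from the fusion and from the normal transcripts of both genes cannot be told apart.

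In GENCODE 44 on GRCh38, the 3 ligand genes lie at chr5:140332843-140346603 (HBEGF, minus strand), chr4:74365145-74388749 (EREG, plus strand) and chr4:74445136-74455005 (AREG, plus strand). The last pair are neighbours with 56.4 kb between them. EGFR lies at chr7:55019017-55211628, ERBB2 at chr17:39687914-39730426 and ERBB3 at chr12:56076799-56103505, all on the plus strand. FGFR1 lies at chr8:38400215-38468834 and FGFR2 at chr10:121478332-121598458, both on the minus strand. FGFR3, at chr4:1793293-1808872, starts 48.1 kb beyond the end of TACC3, at chr4:1712858-1745171, and both are on the plus strand.

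The promoters are shown as the 250 bases before the RefSeq start site, on the gene's strand. They are shown since H3K4me3 was measured around start sites and since nickel is known to stabilize the hypoxia-inducible factors (HIF). The study does not name the annotation of the start sites used for H3K4me3. Capitals mark matches on either strand to the HIF core GCGTG or ACGTG, the cyclic AMP response element (CRE) half-site TGACG and the AP-1 site TGACTCA. RefSeq tables on GRCh38.p14 gave a window for 8 of the 10 genes, all but ERBB3 and FGFR1. FGFR2, FGFR3, AREG and EREG are printed because their letters hold a match, and HBEGF because the RNA results turn on it, a choice made after its values were seen.

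FGFR3, chr4:1793043-1793292: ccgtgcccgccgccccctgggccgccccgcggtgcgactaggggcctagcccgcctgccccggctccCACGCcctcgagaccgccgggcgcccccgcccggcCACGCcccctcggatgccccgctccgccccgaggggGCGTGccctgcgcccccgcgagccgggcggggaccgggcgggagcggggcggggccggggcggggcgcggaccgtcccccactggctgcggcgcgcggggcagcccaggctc

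FGFR2, chr10:121598445-121598694: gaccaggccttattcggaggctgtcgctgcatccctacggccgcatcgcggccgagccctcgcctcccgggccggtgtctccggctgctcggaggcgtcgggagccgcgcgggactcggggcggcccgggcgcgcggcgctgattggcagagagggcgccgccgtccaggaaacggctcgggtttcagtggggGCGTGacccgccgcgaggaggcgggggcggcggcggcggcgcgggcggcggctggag

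AREG, chr4:74444886-74445135: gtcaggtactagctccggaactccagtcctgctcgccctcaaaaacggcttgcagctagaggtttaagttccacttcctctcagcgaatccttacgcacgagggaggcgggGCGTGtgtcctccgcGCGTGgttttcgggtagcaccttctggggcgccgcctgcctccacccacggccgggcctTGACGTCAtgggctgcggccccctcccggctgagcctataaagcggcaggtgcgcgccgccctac

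EREG, chr4:74364895-74365144: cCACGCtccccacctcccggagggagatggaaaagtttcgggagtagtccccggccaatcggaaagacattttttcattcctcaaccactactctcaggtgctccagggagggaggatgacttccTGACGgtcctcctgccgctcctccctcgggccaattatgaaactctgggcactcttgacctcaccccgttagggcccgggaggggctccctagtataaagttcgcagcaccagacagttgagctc

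HBEGF, chr5:140346604-140346853: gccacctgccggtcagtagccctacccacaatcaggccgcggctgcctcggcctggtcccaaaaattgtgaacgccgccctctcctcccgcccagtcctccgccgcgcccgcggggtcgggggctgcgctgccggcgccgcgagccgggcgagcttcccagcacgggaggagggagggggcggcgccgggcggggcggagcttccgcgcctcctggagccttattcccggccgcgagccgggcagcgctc

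The FGFR3 window held 3 GCGTG matches, which start 183, 148 and 112 bases before the start site, and the FGFR2 window held 1, at 57 bases. The AREG window held 2 GCGTG matches, at 139 and 124 bases, and 2 CRE half-sites, at 65 and 62 bases, which overlap on opposite strands. EREG held 1 GCGTG match at 249 bases and 1 CRE half-site at 125 bases. TACC3 held 1 of each, at 151 and 198 bases, but its RefSeq start lies 7773 bp from the GENCODE start and its letters are not shown. No match to any of the 4 motifs was found in the windows of HBEGF, EGFR and ERBB2, and none of the 8 windows held ACGTG or the AP-1 site. Of 35116 windows of the same length, 32.2% held GCGTG, 18.5% ACGTG, 21.2% the CRE half-site and 4.2% the AP-1 site. The windows of FGFR2 and FGFR3 were rich in CpG, with 42 and 40 CpG dinucleotides against a median of 11 over all windows, while HBEGF had 33, AREG 23 and EREG 11.

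The 6 RT4 libraries held 17075833 to 27736454 estimated counts, more in each replicate 2 than in any replicate 1. The 12 urothelial markers all had a mean of at least 1 TPM (a level of transcripts scaled to gene length and library depth), with a sum of 6168 to 8397 TPM per library. None of the 8 haematopoietic markers reached that mean, and their sum was 0.55 to 1.4 TPM, with 3 at 0 in all libraries. The 5 endothelial markers summed to 0.61 to 1.9 TPM, and the fibroblast markers are given beside the results. Each library is bulk RNA, in which fewer cells of a kind and less RNA per cell cannot be told apart.

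The values listed for the 10 genes in RT4 cells ran from 0 TPM, for AREG and EREG in some libraries, to 547 TPM, for TACC3 (plot of TPM by library). In UT cells, TACC3 had the highest level, followed by FGFR3, ERBB2, ERBB3, EGFR, FGFR2, HBEGF and FGFR1, and no neighbours in that order overlapped between their 2 libraries. The values of AREG and EREG were at or near 0, though that of AREG cannot be read as a level, as described below. The order was the same in Ni-W cells for these 8 genes, but there the ranges of ERBB3 and EGFR overlapped. In Ni-E cells HBEGF, at 9.07 and 9.20 TPM, stood above FGFR2, at 7.50 and 4.81 TPM.

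**Figure D1:**
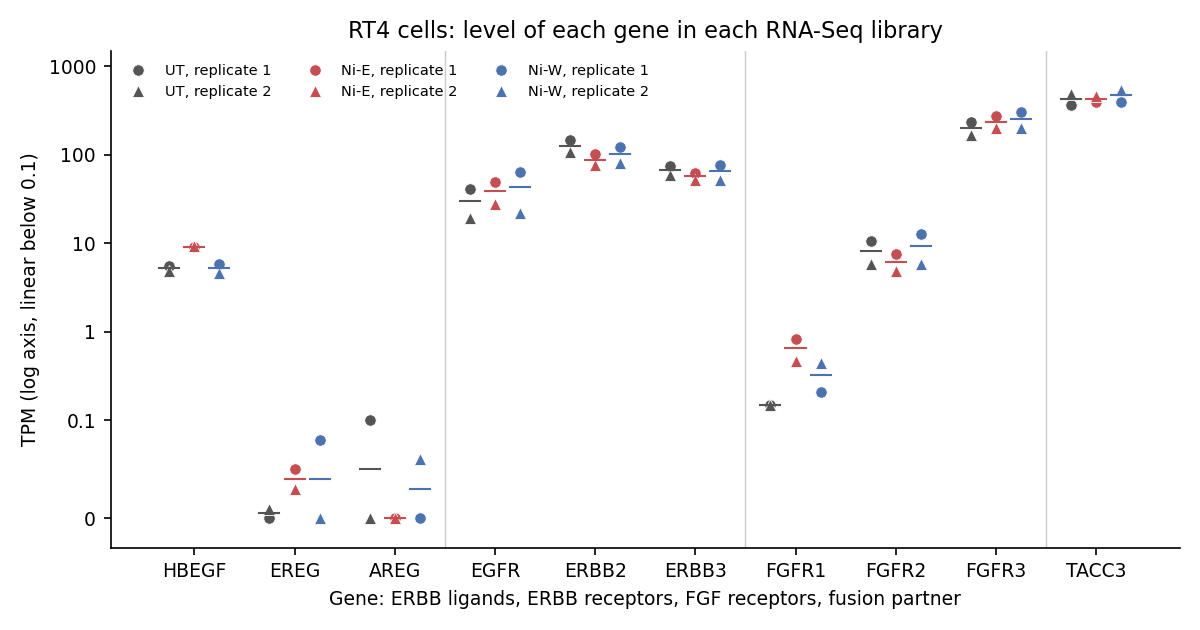
TPM of each gene in each RT4 library, on a log axis that is linear below 0.1. Circles are replicate 1, triangles replicate 2 and short lines the mean of the 2 libraries, in grey for UT, red for Ni-E and blue for Ni-W cells. HBEGF is at 9.07 and 9.20 TPM in Ni-E cells and below 6 TPM in the other 4 libraries, while the 2 replicates of EGFR and of FGFR2 lie apart in each condition.

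Of the ligands, HBEGF was higher while nickel was present and was back at the level of UT cells after washout. HBEGF, heparin-binding EGF-like growth factor, binds EGFR and ERBB4. It had 5.55 and 4.81 TPM in UT cells, 9.07 and 9.20 TPM in Ni-E cells, and 5.82 and 4.59 TPM in Ni-W cells. The Ni-E libraries lay above all others, and the UT and Ni-W libraries overlapped. The fold change of Ni-E over UT cells was 1.76 (log2 0.81, SE 0.21), with an adjusted p of 0.15 in edgeR's quasi-likelihood test, which was not past the threshold. With the replicate number as a block it was again 1.76 (log2 0.81, SE 0.17), with an adjusted p of 0.0070, and HBEGF was called higher. Within replicate 1 the log2 difference was 0.74, and within replicate 2 it was 0.86. The call with the block was lost without UT replicate 1 (adjusted p = 0.099) or UT replicate 2 (adjusted p = 0.17), at log2 fold changes of 0.84 and 0.78.

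From Ni-E to Ni-W cells, HBEGF was 1.82-fold lower, with a log2 fold change of -0.87 (SE 0.17) and an adjusted p of 0.013 with the block. This was a call with the block. The 9 blocked fits that were run were this fit and those that left out 1 library each or changed the tool or scaling. Over them the log2 fold change lay between -0.93 and -0.80. Without the block the adjusted p was 0.43. Between Ni-W and UT cells the blocked log2 fold change was -0.05 (SE 0.17, adjusted p = 0.88).

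The other ligands had few or no counts. EREG, epiregulin, which binds EGFR and ERBB4, had 0 and 1 counts in UT, 2 and 2 in Ni-E, and 3 and 0 in Ni-W cells, all at or under the floor of 3 counts, which is worth 0.0405 to 0.0795 TPM, so that EREG was not detectable at this depth. AREG, amphiregulin, which binds EGFR, had 1 count in UT replicate 1, 1 in Ni-W replicate 2 and 0 in the other 4 libraries. Both failed the filter on low counts, so that 8 of the 10 genes were tested. The AREG value cannot be read as a level. Its row lists the same transcript accession in 2 copies, and of the 960 genes whose accessions all appear in at least 2 copies, 839 (87.4%) had at most 6 counts over the 6 libraries, against 10517 of the 27292 other genes (38.5%).

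The ERBB receptors EGFR, ERBB2 and ERBB3 were all expressed, and ERBB2 was the one with the clearest difference. ERBB2, the receptor without a ligand, had 145 and 107 TPM in UT, 101 and 76.0 in Ni-E, and 123 and 81.7 in Ni-W cells. The 2 Ni-E libraries lay below both UT libraries, and Ni-W overlapped both groups. From UT to Ni-E cells the log2 fold change was -0.52 (SE 0.18, adjusted p = 0.30 without the block). With the block it was -0.52 (SE 0.09, adjusted p = 0.0027), a 1.44-fold lower level, which passed the test but not the 1.5-fold limit of a call. From UT to Ni-W cells it was -0.37 with the block (SE 0.09, adjusted p = 0.025), also under 1.5-fold. The Ni-E value lost its p with the block when UT replicate 1 (adjusted p = 0.16) or UT replicate 2 (adjusted p = 0.24) was left out, and the Ni-W value did so too (adjusted p = 0.58 and 0.69). Over the 9 blocked fits the log2 fold change of Ni-E over UT cells stayed between -0.55 and -0.49. Exons of MIEN1 and PGAP3, on the other strand, share 571 and 144 bp with those of ERBB2, and the library kit does not mark strand. MIEN1 had 672 and 1475 counts in UT, 479 and 1046 in Ni-E, and 426 and 1323 in Ni-W cells. PGAP3 had 623 and 1013 counts in UT, 518 and 783 in Ni-E, and 377 and 755 in Ni-W cells. Both had fewer counts in Ni-E than in UT cells in each replicate, as ERBB2 did, and their part in the result was not tested.

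EGFR, the receptor of HBEGF, TGFA, AREG and EREG, differed more between replicates than ERBB2 and ERBB3. It had 41.5 and 19.2 TPM in UT, 49.0 and 28.0 in Ni-E, and 63.6 and 21.8 in Ni-W cells. Replicate 2 was below replicate 1 by a log2 difference of -0.87 in UT, -0.68 in Ni-E and -1.20 in Ni-W cells, and the 3 conditions overlapped. From UT to Ni-E cells the log2 fold change was 0.37 (SE 0.50, adjusted p = 0.97), and with the block 0.40 (SE 0.12, adjusted p = 0.045), under 1.5-fold. Left out in turn, UT replicate 1, UT replicate 2 and Ni-E replicate 2 each brought the blocked adjusted p above the threshold, to 0.52, 0.38 and 0.32. Exons of EGFR-AS1 share 186 bp with those of EGFR. EGFR-AS1 had 1 to 24 counts per library, and its part in the EGFR values was not tested.

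ERBB3, whose kinase is nearly inactive and which recruits PI3K as the partner of ERBB2, had 75.5 and 59.0 TPM in UT, 62.9 and 51.3 in Ni-E, and 77.3 and 52.4 in Ni-W cells. The 3 conditions overlapped. From UT to Ni-E cells its log2 fold change was -0.24 (SE 0.16, adjusted p = 0.77), and -0.24 (SE 0.09, adjusted p = 0.11) with the block. The ratio of ERBB2 to EGFR was 3.50 and 5.61 in UT, 2.06 and 2.72 in Ni-E, and 1.94 and 3.74 in Ni-W cells, on the TPM scale, and was lower in Ni-E and Ni-W than in UT cells within each replicate.

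Of the FGF receptors, FGFR1 was nearly absent and had the largest fold change, FGFR2 was low and FGFR3 was high. FGFR1 had 7 and 11 counts in UT cells, 41 and 38 in Ni-E, and 9 and 37 in Ni-W cells, which is 0.15 and 0.15 in UT, 0.83 and 0.47 in Ni-E, and 0.21 and 0.44 TPM in Ni-W cells. Both Ni-E libraries lay above all others on the TPM scale, Ni-E replicate 2 only just above Ni-W replicate 2. The Ni-W libraries differed from each other by 1.32 on the log2 scale. The fold change of Ni-E over UT cells was 4.40 (log2 2.14, SE 0.60, adjusted p = 0.19). With the block it was 4.36 (log2 2.12, SE 0.53, adjusted p = 0.020), and FGFR1 was called higher. Without Ni-E replicate 1 this call was lost, with a log2 fold change of 1.38 and an adjusted p of 0.077, and without Ni-E replicate 2 the log2 fold change was 3.07. The blocked log2 fold change of Ni-W over UT cells was 1.31 (SE 0.57, adjusted p = 0.18), and without Ni-W replicate 1 it was 2.01 and passed the test (adjusted p = 0.0030), while without Ni-W replicate 2 it was 0.09 (adjusted p = 0.95). FGFR1 was called lower in Ni-W against Ni-E cells without Ni-E replicate 2 (-1.78, adjusted p = 0.037) or without Ni-W replicate 2 (adjusted p = 0.014), against -0.81 (SE 0.46, adjusted p = 0.42) with all libraries. Without Ni-E replicate 1 or Ni-W replicate 1 that difference was -0.09 or -0.07.

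The FGFR1 values rest on 7 to 41 counts per library, and its level in Ni-E cells was still under 1 TPM. Its exons share 138 bp with those of LETM2 on the other strand. LETM2 had 25 and 53 counts in UT, 29 and 49 in Ni-E, and 27 and 56 in Ni-W cells. The part of these reads in the FGFR1 values was not tested.

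FGFR2 had 10.7 and 5.78 TPM in UT, 7.50 and 4.81 in Ni-E, and 12.8 and 5.84 in Ni-W cells. Replicate 1 was higher throughout, and the conditions overlapped. Its largest difference was between Ni-W and Ni-E cells, with a blocked log2 fold change of 0.52 (SE 0.15, adjusted p = 0.079). Without Ni-E replicate 2 this was 0.66 (adjusted p = 0.0092), and without Ni-W replicate 2 it was 0.66 (adjusted p = 0.0022), both calls.

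FGFR3, the receptor most tied to bladder tumors, had 235 and 169 TPM in UT, 275 and 200 in Ni-E, and 303 and 198 in Ni-W cells. It was higher in Ni-E and Ni-W than in UT cells within each replicate, by 0.27 and 0.18 on the log2 scale for Ni-E and by 0.25 and 0.24 for Ni-W cells. The blocked log2 fold changes were 0.22 (SE 0.09, adjusted p = 0.12) and 0.25 (SE 0.09, adjusted p = 0.11), which did not pass the test. FGFR3 stood 21.9- to 41.6-fold above FGFR2 in the 6 libraries on the TPM scale.

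TACC3, a protein of the mitotic spindle, had 368 and 487 TPM in UT, 397 and 459 in Ni-E, and 399 and 547 in Ni-W cells. Here replicate 2 was higher in each condition, the reverse of FGFR3. Its log2 fold changes with the block were 0.01 (SE 0.12, adjusted p = 0.98) in Ni-E and 0.09 (SE 0.12, adjusted p = 0.65) in Ni-W over UT cells. The ratio of TACC3 to FGFR3 was 1.57, 1.44 and 1.31 in replicate 1 of UT cells, Ni-E cells and Ni-W cells, and 2.88, 2.29 and 2.76 in replicate 2, so that it followed the replicate more than the condition. Exons of TMEM129 share 132 bp with those of TACC3 on the other strand.

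**Figure D2:**
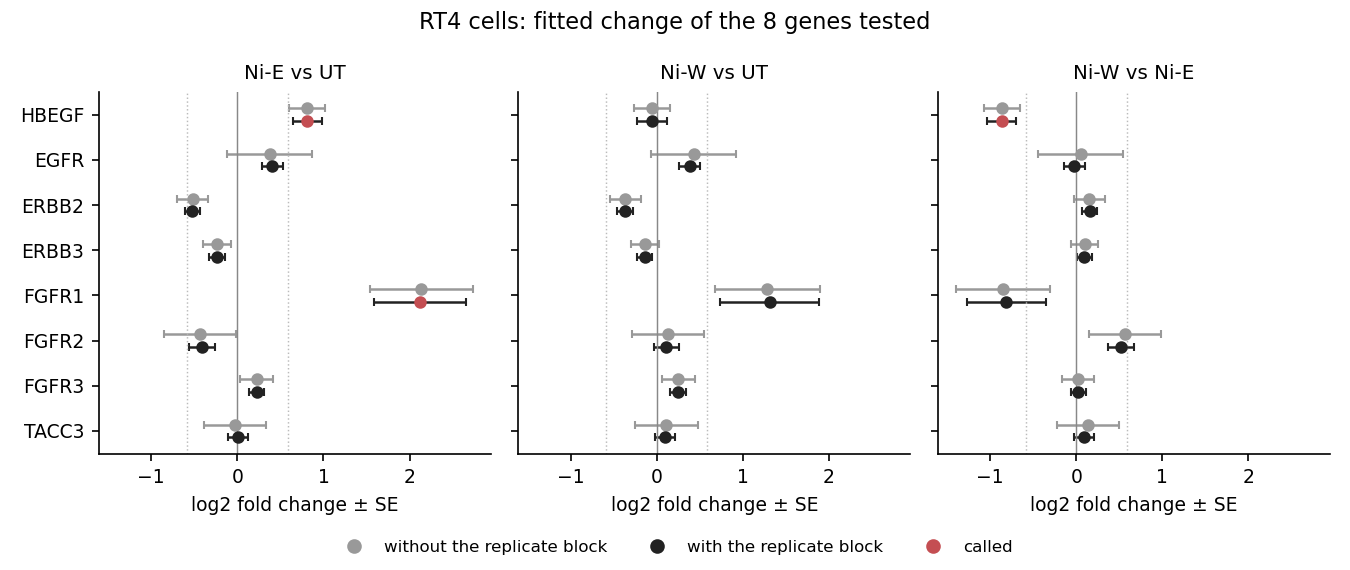
Log2 fold change of the 8 genes tested in each comparison of RT4 cells, with its SE. Grey points are fitted without and black points with the replicate block, red points are called, and dotted lines mark a 1.5-fold change. HBEGF (0.81) and FGFR1 (2.12) are called in Ni-E over UT cells and HBEGF (-0.87) in Ni-W against Ni-E cells, with the block only.

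Without the block, none of the 8 tested genes was called in any comparison by edgeR. In Ni-E over UT cells this stood against 1.45% of all 14502 genes called higher and 0.71% lower, and in Ni-W over UT cells against 0.503% and 0.0965%. In Ni-W against Ni-E cells 0% were called higher and 0% lower, where 808 genes had an unadjusted p under 0.05 and DESeq2 called 139. Of the 8 genes, HBEGF, FGFR1 and ERBB2 had an unadjusted p under 0.05 for Ni-E over UT cells, beside 12.2% of all genes. For Ni-W over UT cells 0 did, beside 9.12%, and for Ni-W against Ni-E cells HBEGF did, beside 5.57%. DESeq2 without the block called 0 of them in each comparison.

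With the block, 2 of the 8 were called higher and 0 lower in Ni-E over UT cells, while 7.64% of all genes were called higher and 5% lower. In Ni-W over UT cells 0 of the 8 were called by edgeR, with 5.79% of all genes higher and 2.78% lower, and DESeq2 with the block called 0. The unadjusted p of edgeR was under 0.05 for 4 of the 8 there, and for 25.5% of all genes. In Ni-W against Ni-E cells 0 were called higher and 1 lower, with 2.72% of all genes higher and 1.8% lower. The median log2 fold change of the 8 genes with the block was 0.11, 0.10 and 0.06 in the 3 comparisons, beside 0.00, -0.01 and 0.00 for all genes. Ni-E over UT and Ni-W over UT share the UT libraries, and Ni-W against Ni-E shares libraries with both.

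A list of 90 further genes of the pathway was described in 10 groups, and 65 of them passed the filter. These groups too were chosen with earlier results known, so that their counts beside the shares of all genes are descriptive only. Without the block, 5 were called higher and 1 lower in Ni-E over UT cells, 1 higher in Ni-W over UT cells, and 0 in Ni-W against Ni-E cells. Leaving out any 1 of the UT or Ni-E libraries left 0 calls in Ni-E over UT cells without the block, and leaving out any 1 of the 6 libraries left 0 in Ni-W over UT cells. With the block, the counts were 10 higher and 2 lower, 7 higher and 4 lower, and 1 higher and 9 lower. Of all genes, 7.64%, 5.79% and 2.72% were called higher with the block in these comparisons, and 5%, 2.78% and 1.8% lower. Without it, the shares of all genes were 1.45% higher and 0.71% lower, then 0.503% and 0.0965%, then 0% and 0%. None of the 9 adaptors, the 10 genes of the RAS-MAPK cascade, the 7 genes of PI3K-AKT or the 4 genes of ligand shedding was called in any of the 3 comparisons, with or without the block. Their leading genes were GRB2, MAP2K2, AKT1 and ADAM10, with means over the 6 libraries of 84.1, 147, 199 and 33.0 TPM.

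Of the 9 other ERBB ligands and receptor, 6 were tested, and NRG1 had the largest rise. NRG1, neuregulin 1, which binds ERBB3 and ERBB4, had 1.10 and 0.98 TPM in UT, 10.7 and 8.31 in Ni-E, and 6.19 and 4.27 in Ni-W cells. The 3 conditions did not overlap. Its log2 fold change was 3.37 (SE 0.28, adjusted p = 0.011) in Ni-E and 2.41 (SE 0.28, adjusted p = 0.035) in Ni-W over UT cells, both called without the block. TGFA, transforming growth factor α, a ligand of EGFR, had 16.9 and 13.4 TPM in UT, 38.6 and 30.2 in Ni-E, and 34.7 and 21.6 in Ni-W cells. It rose in Ni-E over UT cells, by 1.17 on the log2 scale (SE 0.19, adjusted p = 0.047), and it was called in Ni-W over UT cells with the block only (0.81, SE 0.12, adjusted p = 0.0012).

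NRG2 and NRG4, also neuregulins, were called in different directions in Ni-E over UT cells, with the block only. NRG2 had 13.6 and 11.6 TPM in UT, 7.88 and 7.83 in Ni-E, and 5.46 and 5.10 in Ni-W cells, with blocked log2 fold changes of -0.69 and -1.29 over UT cells (adjusted p = 0.0064 and 0.00022). NRG4 was called higher in Ni-E over UT cells (0.89, SE 0.17, adjusted p = 0.0054). From Ni-E to Ni-W cells both NRG1 (-0.97, SE 0.15) and NRG2 (-0.61, SE 0.14) were called lower, with adjusted p of 0.0050 and 0.036. EGF, EPGN, NRG3 and the receptor ERBB4 were at 0.00 to 0.21 TPM in every library. Leaving aside AREG, whose level cannot be read, the ERBB ligands above 1 TPM in each library were HBEGF, TGFA, BTC, NRG2 and NRG4.

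FGF ligands were scarce. Of 22, 4 were tested, and the highest was FGF11, a member that is not secreted, with 3.46 to 3.89 TPM. FGF12 and FGF14, which are likewise intracellular, were called lower and higher in Ni-W over UT cells with the block, at 0.18 to 0.58 and 0.06 to 0.25 TPM over all libraries. FGFBP1, a secreted carrier that frees FGFs from the matrix, had 44.4 and 42.5 TPM in UT, 75.9 and 77.0 in Ni-E, and 47.0 and 47.3 in Ni-W cells. Its 2 Ni-E libraries lay above the others, and its log2 fold change with the block was 0.80 (SE 0.12, adjusted p = 0.0011) in Ni-E over UT and -0.73 (SE 0.12, adjusted p = 0.0057) in Ni-W against Ni-E cells.

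Of the inhibitors, ERRFI1 and DUSP5 rose and SPRY4 fell in Ni-E over UT cells. ERRFI1, which blocks the kinase of EGFR and ERBB2, had 22.8 and 14.7 TPM in UT, 45.9 and 40.7 in Ni-E, and 48.6 and 32.3 in Ni-W cells. Its log2 fold change was 1.22 (SE 0.20, adjusted p = 0.049) in Ni-E over UT cells, and in Ni-W over UT cells it was 1.06 with the block (SE 0.12, adjusted p = 0.00031). DUSP5, a phosphatase of nuclear ERK, rose by 0.97 on the log2 scale (SE 0.15, adjusted p = 0.042). SPRED1, another inhibitor of the RAS-MAPK cascade, was called higher in Ni-E over UT cells with the block only (0.66, SE 0.18, adjusted p = 0.031). SPRY4, a Sprouty inhibitor of signalling from FGF receptors, had 46.9 and 38.6 TPM in UT, 16.9 and 12.6 in Ni-E, and 33.6 and 26.6 in Ni-W cells. The 3 conditions did not overlap, and the log2 fold change was -1.55 (SE 0.18, adjusted p = 0.022) in Ni-E over UT cells. From Ni-E to Ni-W cells, SPRY4 was called higher with the block (1.00, SE 0.12, adjusted p = 0.00098).

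Of the 9 transcriptional targets of MAP kinase signalling, 8 were tested. EGR1, an immediate early transcription factor, had 36.6 and 21.8 TPM in UT, 186 and 110 in Ni-E, and 62.5 and 36.9 in Ni-W cells, and rose by 2.34 on the log2 scale in Ni-E over UT cells (SE 0.30, adjusted p = 0.028). FOSL1 and IER3 were called higher there with the block only (1.27, adjusted p = 0.00060, and 0.76, adjusted p = 0.014). In Ni-W over UT cells, 3 of the 8 were called higher and 2 lower with the block, beside 5.79% and 2.78% of all genes. Among them were FOS (-1.50), FOSL1 (0.91), IER3 (-0.81) and EGR1 (0.72). From Ni-E to Ni-W cells, 6 of the 8 were called lower with the block, beside 1.8% of all genes. The largest falls were those of EGR1 (-1.61), IER3 (-1.57), FOS (-1.52) and ETV4 (-0.83). FOS, with 553 and 550 TPM in UT and 587 and 535 in Ni-E cells, was at 157 and 249 in Ni-W cells, below both other conditions.

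**Figure D3:**
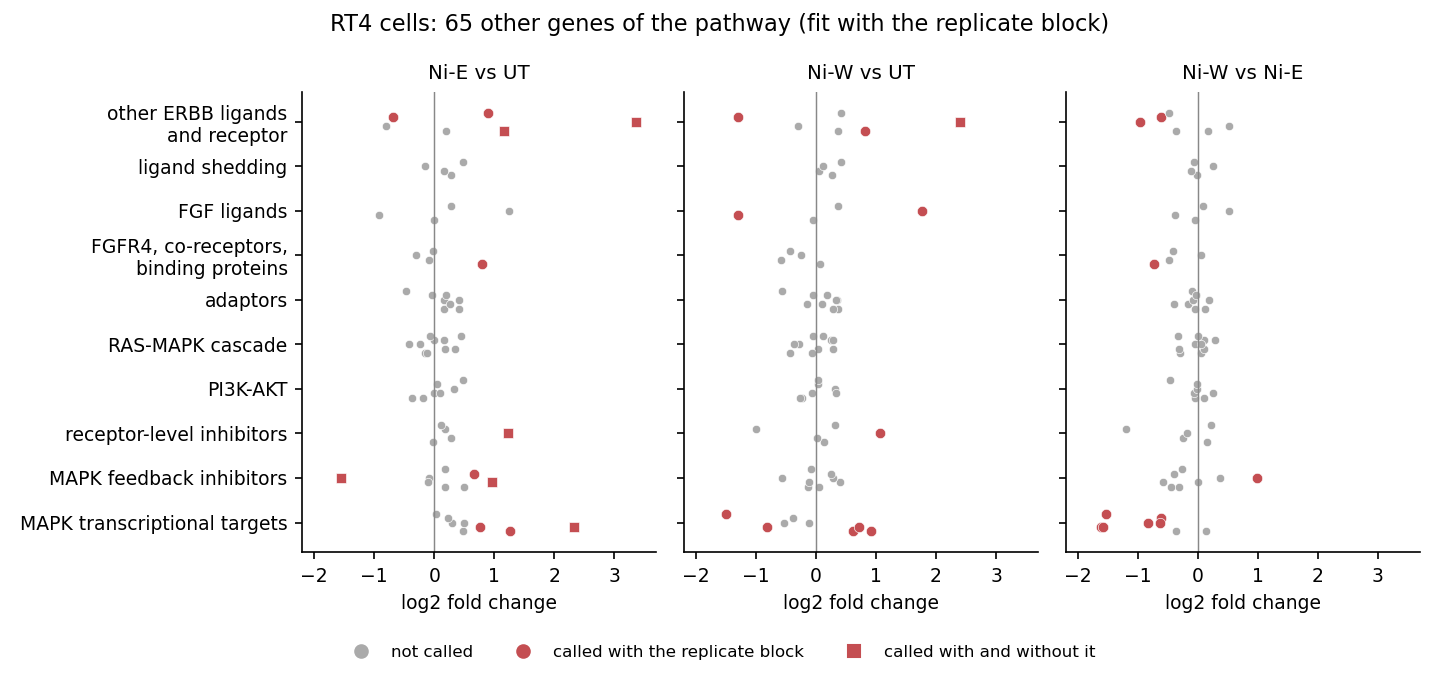
Log2 fold change of the 65 further pathway genes that were tested, by group and comparison, from the fit with the replicate block. Red circles are called with the block and red squares with and without it. In Ni-E over UT cells the squares are NRG1 (3.37), TGFA (1.17), ERRFI1 (1.23), DUSP5 (0.97), SPRY4 (-1.55) and EGR1 (2.33).

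Some of the 12 urothelial markers also differed between conditions, and their part in the results was not tested. Without the block, 2 were called lower in Ni-E over UT cells, 1 lower in Ni-W over UT cells and 0 in Ni-W against Ni-E cells. With the block, 7 were called lower in Ni-E over UT cells, beside 5% of all genes, 2 lower in Ni-W over UT cells, beside 2.78%, and 6 higher in Ni-W against Ni-E cells, beside 2.72%. The other 5 were not called in any comparison. Of these, UPK3B had 293 and 313 TPM in UT and 391 and 406 in Ni-E cells. The largest was KRT20, a keratin of superficial cells, with 11.1 and 11.3 TPM in UT, 0.25 and 0.11 in Ni-E, and 1.59 and 1.37 in Ni-W cells. UPK2 had 285 and 402 TPM in UT, 96.2 and 128 in Ni-E, and 222 and 328 in Ni-W cells. The sum of the 12 was 6168 and 6625 TPM in UT, 6948 and 7082 in Ni-E, and 7154 and 8397 in Ni-W cells, most of it from KRT7, which was not called in any comparison. The 6 fibroblast markers summed to 1.73 and 1.09 TPM in UT, 4.75 and 3.01 in Ni-E, and 5.13 and 2.34 in Ni-W cells. Of them, 1 was called higher in Ni-E and in Ni-W over UT cells with the block and 0 without it, COL3A1, while COL1A2 and DCN were at 0 in all 6 libraries. The part of these markers in the results was not tested.

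In BEAS-2B cells, promoter H3K4me3 was given as RPKM over 2 kb on each side of the start site. The values came from 28385725 reads for UT, 37493949 for Ni-E and 29933551 for Ni-W cells, as recovered from the smallest step of the values, and every value was a whole number of reads to within 0.0006 RPKM. Of these reads 37.56%, 36.03% and 22.89% lay in the listed promoters, and the median promoter had 1.57, 1.39 and 1.12 RPKM. Ranges in brackets are 95% Wilson intervals and cover counting error only. With 1 library per condition, no test of the conditions was made, and the differences have no replicate check.

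In UT cells, TACC3 and HBEGF had the most H3K4me3 of the 10 promoters and EREG and FGFR2 the least. TACC3 had 9.75 RPKM (9.19 to 10.3), above 91.05% of all promoters, and HBEGF 8.37 RPKM (7.85 to 8.92), above 85.3%. EGFR had 6.83 RPKM (6.36 to 7.32), FGFR1 6.62 (6.17 to 7.11) and ERBB3 6.38 (5.93 to 6.86), and these intervals overlapped. ERBB2 had 5.15 RPKM (4.75 to 5.59) and FGFR3 4.15 (3.79 to 4.54). AREG had 2.02 RPKM (1.77 to 2.30), EREG 0.854 (0.700 to 1.04) and FGFR2 0.643 (0.511 to 0.808), with the intervals of the last pair overlapping. FGFR2 had the most CpG dinucleotides of the 8 windows and, together with EREG, the least H3K4me3 of the 10 genes. A relation between CpG content and H3K4me3 was not tested. If the authors' start for TACC3 is that of GENCODE, its 4 kb window shares 3486 bp with that of SLBP.

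**Figure D4:**
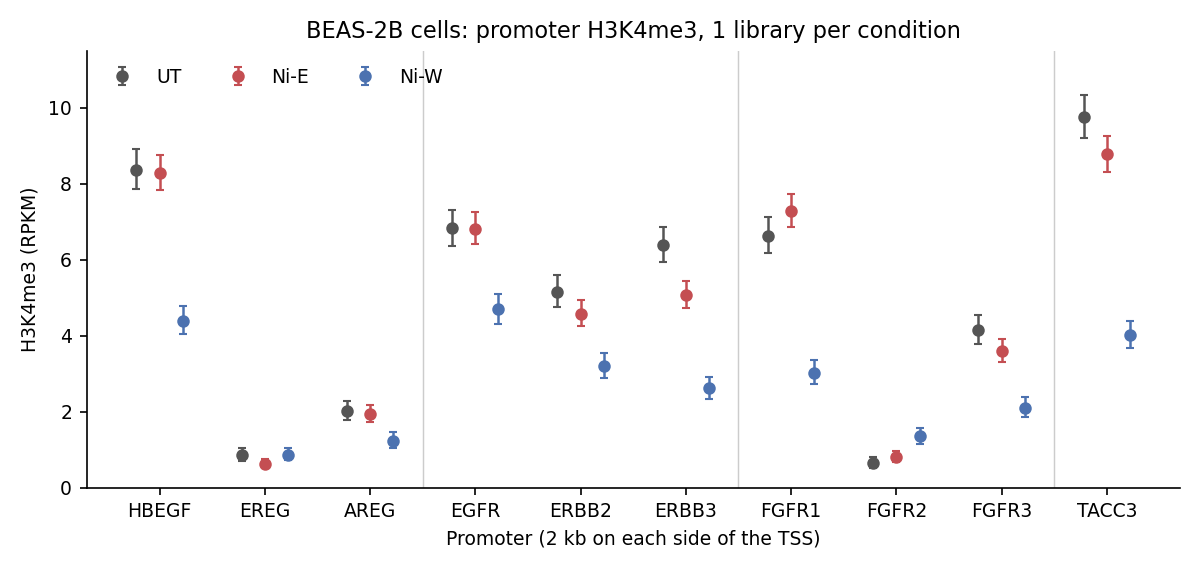
H3K4me3 of the 10 promoters in BEAS-2B cells, in RPKM from 0, with a single library per condition. Bars are 95% Wilson intervals from the reads, which cover counting error only. The Ni-W point is the lowest of the 3 for 8 promoters and the highest for FGFR2 (1.35 RPKM), while for EREG the intervals overlap.

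During exposure, 5 of the 10 promoters were within counting error. The chromatin dynamic score, defined in the study, is the difference between conditions in the square root of RPKM over the median of the library. Scores outside the 95% range of their counting error were taken as past it. In Ni-E over UT cells, 4 of the 10 were past it on the higher side and 1 on the lower, while 29.1% of all promoters were higher and 3.74% lower. FGFR1 went from 6.62 to 7.29 RPKM with a score of 0.238, HBEGF had a score of 0.133, EGFR 0.131 and FGFR2 0.128. ERBB3 went from 6.38 to 5.07 RPKM with a score of -0.104. The higher scores of HBEGF and EGFR come from the scaling to the median, since their RPKM was all but equal (8.37 and 8.28, 6.83 and 6.82). Without median scaling their scores were -0.0128 and -0.000821, and 2 of the 10 scores were above 0 and 8 below, against 7 and 3 with it. With quantile scaling the split was 5 and 5.

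In the washed-out population, TACC3, HBEGF and 4 of the receptors had less H3K4me3 and FGFR2 had more. In Ni-W over UT cells, 6 of the 10 were past counting error on the lower side and 2 on the higher. Of all promoters, 36.3% were lower and 19.9% higher. Of promoters whose 3 libraries averaged 3 RPKM or more, 69.59% were lower, as were 6 of the 7 genes at that level. TACC3 went from 9.75 to 4.01 RPKM with a score of -0.601, ERBB3 from 6.38 to 2.62 with -0.486, and FGFR1 from 6.62 to 3.03 with -0.409. HBEGF went from 8.37 to 4.40 RPKM with a score of -0.327, FGFR3 from 4.15 to 2.11 with -0.252, and ERBB2 from 5.15 to 3.20 with -0.122, which turned to 0.0768 with quantile scaling. The scores of EGFR (-0.0383) and AREG (-0.0798), which are scaled to the median, were within counting error. Before that scaling both were lower, with intervals that did not overlap. EGFR went from 6.83 RPKM in UT to 4.69 in Ni-W cells, and AREG from 2.02 to 1.24. Of the 10 scores, 2 were above 0 and 8 below, also without median scaling, and 4 and 6 with quantile scaling.

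On the higher side, FGFR2 went from 0.643 to 1.35 RPKM, 2.10-fold, with a score of 0.459. It had 73 reads in UT, 123 in Ni-E and 162 in Ni-W cells, at intervals of 0.511 to 0.808, 0.687 to 0.978 and 1.16 to 1.58 RPKM, so that the Ni-W level was above the other 2 beyond counting error. EREG had 0.854 RPKM in UT and 0.877 in Ni-W cells, and its score of 0.147 comes from the scaling. Against Ni-E cells, 8 of the 10 were past counting error on the lower side and 2, FGFR2 and EREG, on the higher. Of all promoters 44.3% were lower and 14.8% higher, and of those averaging 3 RPKM or more 79.31% were lower and 6.463% higher. Of the 10 genes, 7 had that level, and all 7 were lower. With quantile scaling, the 10 scores against Ni-E cells were 4 above 0 and 6 below, with EGFR (-0.169) at 0.131 and ERBB2 (-0.127) at 0.134.

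Scores in Ni-W cells went with the level of the promoter. Of the 11017 promoters whose 3 libraries averaged 3 RPKM or more, 69.59% were lower and 10.1% higher in Ni-W over UT cells, with a median score of -0.237. Of the 10 genes, 7 had that level, with 6 lower, 0 higher and a median score of -0.327. Of the 15220 promoters below it, 12.18% were lower and 26.92% higher, and of FGFR2, EREG and AREG 0 were lower and 2 higher. The share of reads in promoters was lowest in the Ni-W library, at 22.89%, and its part in these scores was not tested.

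**Figure D5:**
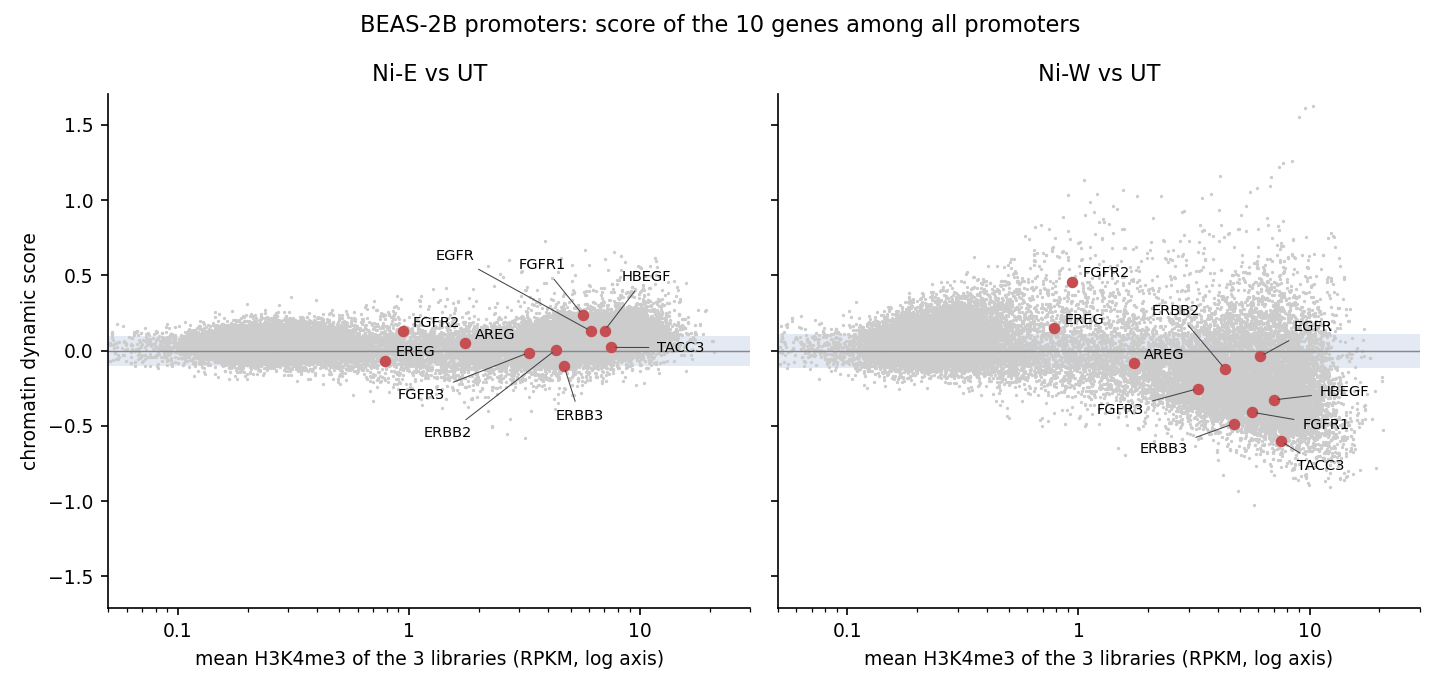
Chromatin dynamic score of each BEAS-2B promoter (grey) against its mean H3K4me3 over the 3 libraries, with the 10 genes in red and the range within counting error shaded. Promoters under a mean of 0.05 RPKM are not drawn. In Ni-W over UT cells most promoters above 3 RPKM lie below 0, TACC3 lies at -0.601 and FGFR2 at 0.459, and the median of the 10 was -0.187 against -0.0266 for all promoters.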

How the data were processed

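For RT4 cells, the authors deposited RSEM estimated counts (expected counts), TPM and FPKM per gene for 6 RNA-Seq libraries. The study's methods name STAR on hg19 with multi-hits removed for RNA-Seq, and the submitters' processing notes list GRCh38/hg38, STAR and DESeq2. Which alignments the estimated counts were made from is not given in the sources used here. The deposited FPKM values were not used. Depth was 17075833 to 27736454 estimated counts per library. For BEAS-2B cells, the authors deposited RPKM per promoter, from reads aligned to hg38 with BWA, without peak calling, for 1 H3K4me3 library per condition. The input libraries were not analysed here.

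Estimated counts were rounded and fitted with edgeR's quasi-likelihood test (TMM factors, filterByExpr, 1 model of the 3 groups), and p-values were adjusted by Benjamini-Hochberg over 14502 genes. A call needed an adjusted p below 0.05 and a 1.5-fold change or more. Each SE printed for these fits is the absolute log2 fold change divided by the square root of the test's F statistic. Libraries were paired by the suffix for a duplicate in their titles. Deviations of same-numbered libraries from the group means correlated over genes (r = 0.6575 for UT and Ni-E, 0.7642 for UT and Ni-W, 0.6888 for Ni-E and Ni-W), so that the fit with a replicate block is printed beside each result it changes. The titles do not say what the replicates share, and p-values measure the spread between these libraries.

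All 10 genes are named, and of the other lists the genes called in a comparison with or without the block, at most 4 per list and comparison by size, and the gene with the highest mean TPM. Members and lists were chosen with earlier results of these data known. Reads per promoter were recovered from the RPKM step in each library, with 95% Wilson intervals. Alternatives were DESeq2, RLE size factors, other filters, limma on log2(TPM + 1) and log2(TPM + 0.1), only the 2 groups compared, each library left out, and other scalings of the score. Fits with the block under DESeq2, RLE factors or without a library were chosen after seeing the data. The fits and scores were tested on simulated data. RNA fits used DESeq2 1.42.0, limma 3.58.1 and edgeR 4.0.16 in R 4.3.3. Promoters and figures used matplotlib 3.10.9, scipy 1.17.1, pandas 2.3.3 and numpy 2.4.6 in Python 3.11.15.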

Additional observations from a re-analysis of the deposited data

How the results depend on the processing

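Of the 8 tested genes, edgeR called 0 in each RT4 comparison without the block, also with DESeq2, RLE factors, other filters, limma, only 2 groups or a library left out. With the replicate block, which pairs the libraries, it called 2 in Ni-E over UT, 0 in Ni-W over UT and 1 in Ni-W against Ni-E cells, and the counts were 2, 0 and 1 also with DESeq2 or RLE factors and the block. Leaving out 1 library each with the block gave 1 to 2, 0 to 1 and 1 to 3. Of the 65 further pathway genes, 6, 1 and 0 were called without the block in the same order of comparisons. With the replicate block, 12, 11 and 10 were called, with DESeq2 and the block 11, 8 and 10, and with RLE factors and the block 12, 11 and 10. Leaving out 1 library each gave 0 to 5, 0 to 0 and 0 to 0 without the block, and 8 to 16, 4 to 17 and 8 to 14 with it. Of these, leaving out Ni-W replicate 1 with the block gave 13, 9 and 13, and Ni-W replicate 2 gave 13 in Ni-E over UT and 17 in Ni-W over UT cells. Without the block, DESeq2 called 4 in Ni-W over UT and 4 in Ni-W against Ni-E cells, and a filter of at least 10 counts left 4 in Ni-E over UT cells. With only the 2 groups compared, 0 were called in Ni-W over UT cells. Limma on log2(TPM + 1) or log2(TPM + 0.1) called 1, and without a filter 2, in Ni-E over UT cells, and 0 in Ni-W over UT cells in all 3 fits. The cause of these differences was not tested.

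Among H3K4me3 scores past counting error, without median scaling EGFR (-0.000821) and HBEGF (-0.0128) changed sign in Ni-E over UT cells. Quantile scaling changed the sign of ERBB2 in Ni-W over UT cells (0.0768) and of EGFR (0.131) and ERBB2 (0.134) in Ni-W against Ni-E cells. The median score of the 10 promoters moved from 0.0372 to -0.0651, from -0.187 to -0.457 and from -0.204 to -0.382 without median scaling, in the same order of comparisons. As a log2 ratio it was -0.361 in Ni-W over UT and -0.340 in Ni-W against Ni-E cells, and with quantile scaling -0.0792 in the latter. With 2 RNA libraries and 1 ChIP library per condition, the number of libraries limits the precision beside the depth. EREG was at or under 3 counts, and FGFR1 at 7 to 41.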
